A study of Mus musculus with 12 samples.

Results

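The genes described here are 9 markers used in telling the principal neurons of the hippocampus apart. Prox1, Calb1, C1ql2 and Dsp mark dentate granule cells, Wfs1 and Mpped1 mark CA1 pyramidal cells, Grik4 marks CA3 pyramidal cells, and Neurod2 and Neurod6 are transcription factors of pyramidal neurons. They were picked out by gene symbol from the 55471 genes of the count table, and all 9 were among the 19578 genes that were tested. RNA-seq had been performed on WT primary hippocampal neurons, grown from embryos of CD1 mice in litters of mixed sex. On day in vitro (DIV) 7 both groups received lipid nanoparticles loaded with antisense LNA gapmers, and RNA was isolated on DIV 10. The control group (6 libraries) received control gapmers, of a sequence with no known target, and the Neuid KD group (6 libraries) received NeuID targeting gapmers, which recruit RNase H to the lncRNA Neuid. Each group thus rests on 1 gapmer sequence. The cultures were not sorted before RNA was taken, so the level of a marker cannot be assigned to the cell type it is listed under. Nothing in the labels says that the libraries of a group came from separate cultures or litters, so the p-values measure only the spread between these libraries, which may be technical.

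Granule cells of the dentate gyrus send mossy fibres to the pyramidal cells of CA3, which in turn project to the pyramidal cells of CA1. Each of these cell types keeps its identity through transcription factors such as Prox1 and the NeuroD family, and shows it in calcium-binding proteins, receptors and secreted synaptic proteins. Pyramidal neurons are born in the embryo, whereas granule cells continue to be born after birth. How many cells of each type these cultures from embryos held was not measured.

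The control libraries held 18002585 to 30914714 counted reads and the Neuid KD libraries 11152556 to 30573480. Levels are given in CPM, the reads of a gene scaled to the TMM-adjusted size of its library. Neuid itself (Gm10419) had 28.4 ± 2.03 CPM in control cultures and 8.05 ± 1.13 CPM after Neuid KD (SD, n = 6 each), with no overlap (exact permutation test, two-sided, p = 0.002165, which is the smallest possible with 6 libraries against 6). Reads on 1780 chemosensory receptor genes, which act mainly in sensory epithelia and serve here as a measure of background, made up 26.0 to 653 CPM of control libraries and 26.9 to 604 CPM of Neuid KD libraries. Neuid KD replicate 1 stood apart. It was the shallowest library, and over the 153 tested markers and list genes used here it lay far from the rest of its group for 20, where any other library did so for 0 or 1. None of the 9 subtype markers was among these 20, but replicate 1 was the lowest Neuid KD library for 5 of the 9 (Prox1, Wfs1, Mpped1, Neurod2 and Grik4). Values without it are therefore given beside the results it touches.

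All 9 subtype markers were detected in every library, with between 134 reads (C1ql2) and 14976 reads (Neurod6) per library. None of the 9 was called at an adjusted p under 0.05 with an absolute log2 fold change above 0.5 (edgeR's quasi-likelihood test with Benjamini-Hochberg adjustment over all tested genes), as 3.23% of all tested genes were (2.44% higher and 0.792% lower, or 477 and 155 genes, against 389 and 218 with upper-quartile scaling). DESeq2 also called 0 of the 9 at these thresholds, and 5 of the 9 had an unadjusted p under 0.05 in edgeR. Over all tested genes, the shares with an unadjusted p under 0.05, or passing the adjusted p alone in DESeq2, were not counted. Such counts, here and below, have no share beside them and are given as description only. With the adjusted p alone, 2 of the 9 passed: Grik4 rose and Wfs1 fell, to 118% and 85.0% of the control level. By this criterion 8.72% of all tested genes passed (6.31% higher and 2.42% lower), and 14.8% of the 8490 genes whose mean was at least that of C1ql2, the lowest of the 9 at 11.7 CPM. The log2 fold changes, Neuid KD minus control, ran from -0.30 (C1ql2) to 0.24 (Grik4), 5 positive and 4 negative, with a median of 0.05 where all tested genes had -0.03. The median absolute log2 fold change was 0.129, against 0.146 over all tested genes and 0.0823 over the 8490 genes. For 8 of the 9 the 95% interval of the log2 fold change lay within ±0.5, and the interval of C1ql2 reached just beyond it. No marker was free of overlap between the groups, as 5.70% of all tested genes were. In bulk RNA, fewer cells of a type and less RNA per cell cannot be told apart.

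**Figure D1:**
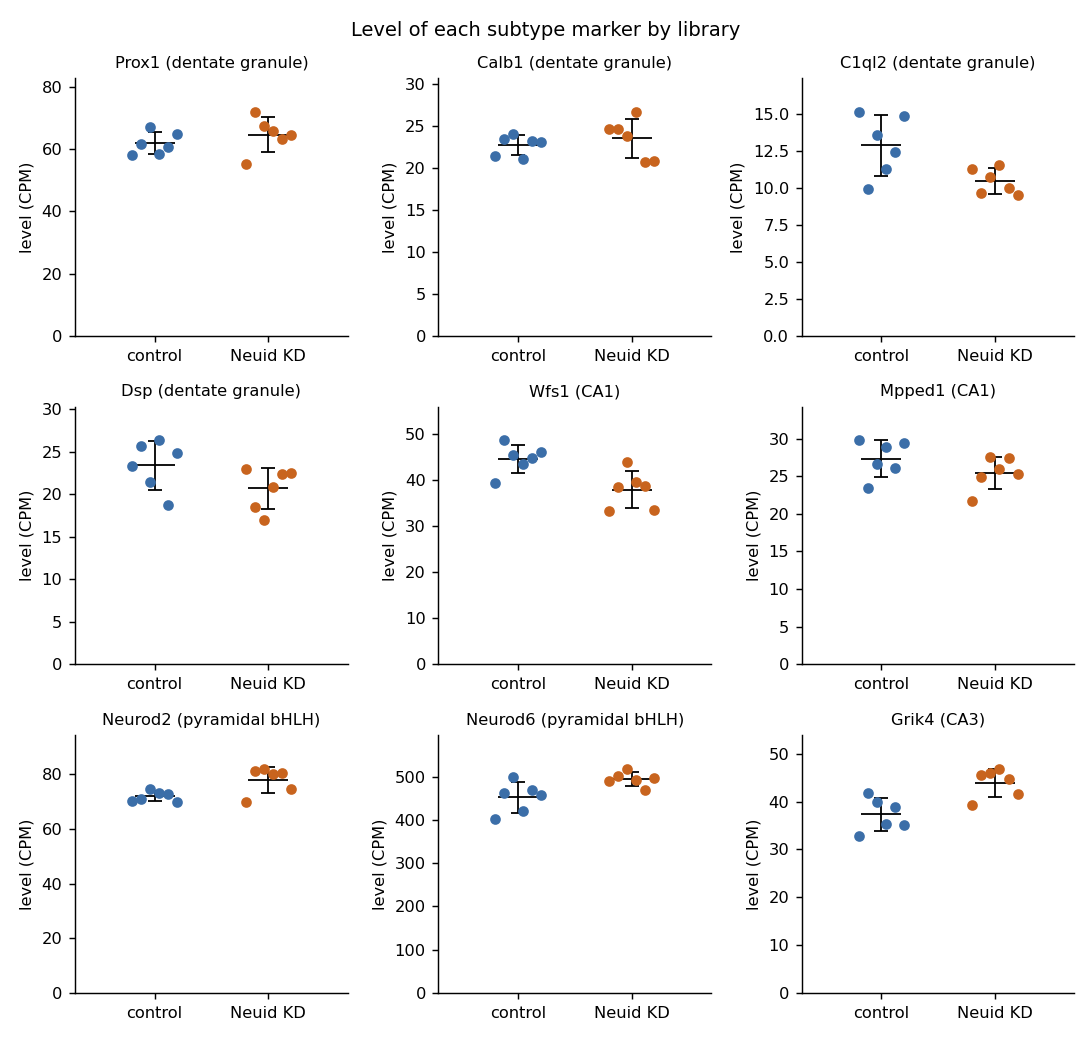
Level of each of the 9 subtype markers in CPM (y axis, from 0), with 1 point per library for the 6 control (blue) and 6 Neuid KD (orange) libraries, and the mean and SD as bars. The 2 groups overlap in every panel, and the shift is easiest to see for Wfs1 (lower in Neuid KD) and Grik4 (higher).

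Of the 4 dentate granule cell markers, none passed the adjusted p, as 8.72% of all tested genes did in either direction. In DESeq2 1 of the 4 (C1ql2) did, and 1 had an unadjusted p under 0.05 in edgeR. Prox1 (ENSMUSG00000010175, GRCm38 chr1:190118035-190170714, minus strand) encodes the homeodomain factor that specifies and maintains granule cell identity. In control libraries it was at 58.3 CPM in the lowest, 61.2 in the median and 67.1 in the highest, and in Neuid KD libraries at 55.2, 65.2 and 71.9 CPM. The Neuid KD values thus enclosed the control range, with replicate 1 below all controls and 2 libraries above them. The log2 fold change of Prox1 was 0.07 (95% interval -0.06 to 0.19, adjusted p = 0.675, edgeR). In percent, the interval ran from -4.02% to 14.4%. Without Neuid KD replicate 1 the log2 fold change was also 0.07. An antisense gene, Prox1os, shares 133 bp of exon with Prox1 on the other strand, and whether the counting used strand is not given in the sources used here.

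Calb1 (ENSMUSG00000028222, chr4:15881264-15908064, plus strand), the calcium-binding protein calbindin of mature granule cells, ran from 21.1 to 24.1 CPM in control libraries (median 23.2) and from 20.8 to 26.6 CPM in Neuid KD libraries (median 24.2). The Neuid KD libraries were more spread, with 3 above all controls and 2 below them. The log2 fold change of Calb1 was 0.05 (95% interval -0.09 to 0.19, adjusted p = 0.811, edgeR), but it was -0.013 with upper-quartile scaling and -0.0012 without Neuid KD replicate 1, so that no direction can be given.

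C1ql2 (ENSMUSG00000036907, chr1:120340582-120343174, plus strand) encodes a secreted C1q-like protein that mossy fibre terminals release to organise kainate receptors at their synapses on CA3 cells. It was at 9.91, 13.0 and 15.1 CPM in the lowest, median and highest control library, and at 9.52, 10.3 and 11.6 CPM in Neuid KD. Every Neuid KD library was below the control median, 4 control libraries were above all Neuid KD libraries, and the remaining 2 controls, replicates 2 and 4, lay within the Neuid KD range. The mean was 12.9 ± 2.05 CPM in control cultures and 10.5 ± 0.866 CPM after Neuid KD (SD, n = 6 each). The log2 fold change was -0.30 (standard error 0.0979, 95% interval -0.51 to -0.09, adjusted p = 0.0722, edgeR), which missed the threshold. C1ql2 passed without control replicate 2 (-0.37) and without Neuid KD replicate 1 (-0.36), and under DESeq2 (-0.32). It is the least expressed of the 9 and varied most in control, with a coefficient of variation of 16.0%, where counting error alone gives about 6.36%.

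Dsp (ENSMUSG00000054889, chr13:38151294-38198577, plus strand), which encodes the desmosomal linker desmoplakin and is used as a granule cell marker, was at 18.7, 24.1 and 26.3 CPM in the lowest, median and highest control library and at 17.0, 21.6 and 23.0 CPM in Neuid KD. All 6 Neuid KD libraries were below the control median, and the ranges overlapped. The log2 fold change of Dsp was -0.18 (95% interval -0.37 to 0.01, adjusted p = 0.295, edgeR). Without Neuid KD replicate 1, the highest Dsp library of its group, it was -0.25 (adjusted p = 0.101, edgeR). Gm10129 shares 499 bp of exon with Dsp on the opposite strand.

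Both CA1 markers were lower in all 6 Neuid KD libraries than in the median control library, and 1 of them passed. Wfs1 (ENSMUSG00000039474, chr5:36966104-36989205, minus strand) encodes wolframin, a membrane protein of the endoplasmic reticulum that is abundant in CA1 pyramidal cells. Its control libraries ran from 39.4 to 48.7 CPM (median 45.2) and its Neuid KD libraries from 33.3 to 43.9 CPM (median 38.7). Of the Neuid KD libraries 4 were below every control library, and 4 control libraries were above every Neuid KD library. Wfs1 fell from 44.7 ± 3.09 to 38.0 ± 4.02 CPM (SD, 6 libraries each), to 85.0% of the control level, with a log2 fold change of -0.23 (standard error 0.0677, 95% interval -0.37 to -0.09, adjusted p = 0.0435, edgeR; exact permutation p = 0.01082). The adjusted p of Wfs1 was near the threshold, and it rose above it when any of control replicates 2 to 6 or Neuid KD replicates 2 or 4 was left out (up to 0.149), while the log2 fold change stayed between -0.28 and -0.21. Without Neuid KD replicate 1 it was -0.24 (adjusted p = 0.0285, edgeR). Within the 7 libraries with at least 100 CPM of background it was -0.32 (adjusted p = 0.0625) and within the 5 libraries under it -0.18 (adjusted p = 0.105, both edgeR). Without a filter on low counts, where 48419 genes were adjusted for, neither Wfs1 (adjusted p = 0.403) nor Grik4 (adjusted p = 0.282) passed in edgeR. Mpped1 (ENSMUSG00000041708, chr15:83779467-83858494, plus strand), a metallophosphoesterase gene used to mark CA1, ran from 23.4 to 29.7 CPM in control (median 27.7) and from 21.6 to 27.5 CPM in Neuid KD libraries (median 25.6). Its groups overlapped, and the log2 fold change of Mpped1 was -0.10 (95% interval -0.24 to 0.05, adjusted p = 0.55, edgeR), and also -0.10 without Neuid KD replicate 1.

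The CA3 marker moved the other way. Grik4 (ENSMUSG00000032017, chr9:42518135-42944493, minus strand) encodes a high-affinity kainate receptor subunit (GluK4) that is concentrated in CA3 pyramidal cells at mossy fibre synapses. It was at 32.8, 37.1 and 41.9 CPM in the lowest, median and highest control library and at 39.2, 45.1 and 46.8 CPM in Neuid KD. Every Neuid KD library was above the control median, 4 were above all controls, and 4 controls were below all Neuid KD libraries. Grik4 rose from 37.3 ± 3.46 to 44.0 ± 2.95 CPM (SD, 6 libraries each), to 118% of control, with a log2 fold change of 0.24 (standard error 0.0637, 95% interval 0.10 to 0.37, adjusted p = 0.0247, edgeR; exact permutation p = 0.01299). Leaving out 1 library kept the log2 fold change between 0.20 and 0.26, but the adjusted p of Grik4 stayed under 0.05 only without control replicate 2, control replicate 3 or Neuid KD replicate 1, and reached 0.149 at most. Without Neuid KD replicate 1 the log2 fold change was 0.23 (adjusted p = 0.0268, edgeR). Within the 7 libraries with at least 100 CPM of background the log2 fold change was 0.22 (adjusted p = 0.382) and within the other 5 it was 0.20 (adjusted p = 0.0547, both edgeR). Gm24420, a small RNA gene, shares 59 bp of exon with Grik4 on the same strand.

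**Figure D2:**
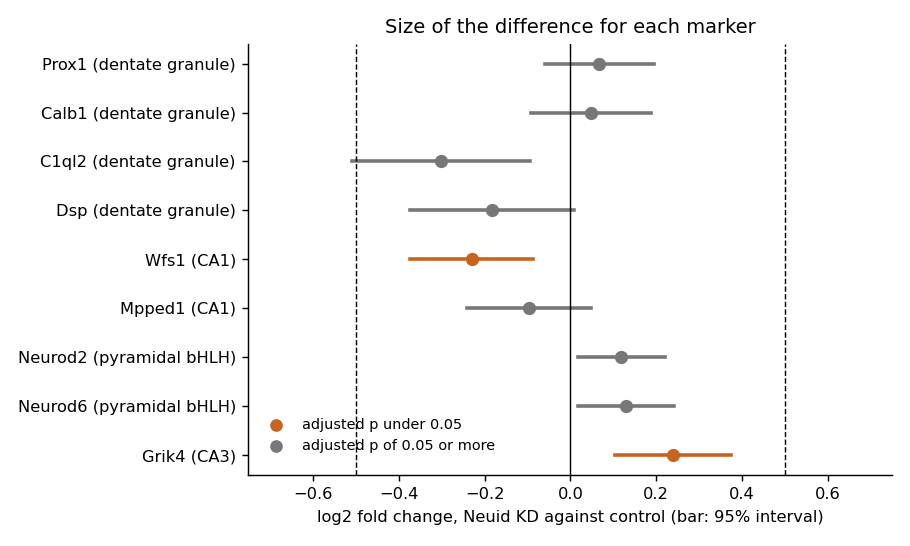
log2 fold change of each subtype marker, Neuid KD against control (x axis), with its 95% interval from edgeR, orange where the adjusted p was under 0.05. Dashed lines mark ±0.5, which only the interval of C1ql2 (-0.51 to -0.09) crosses.

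The 2 pyramidal bHLH factors were both higher on average in Neuid KD libraries, and neither passed the adjusted p. Neurod2 (ENSMUSG00000038255, chr11:98325415-98329648, minus strand) drives the maturation of glutamatergic neurons and their synapses. It ran from 70.0 to 74.6 CPM in control libraries (median 71.7) and from 69.9 to 82.0 CPM in Neuid KD libraries (median 80.3). The control libraries lay within a narrow band, with a coefficient of variation of 2.51%, where counting error gives about 2.49%, and 4 Neuid KD libraries were above all of them, whereas Neuid KD replicate 1 was below. The log2 fold change of Neurod2 was 0.12 (95% interval 0.02 to 0.22, adjusted p = 0.163, edgeR; exact permutation p = 0.0303), and 0.11 without Neuid KD replicate 1. Neurod6 (ENSMUSG00000037984, chr6:55677822-55681263, minus strand), a late factor kept on in pyramidal neurons, was at 403, 460 and 499.6 CPM in the lowest, median and highest control library and at 468, 495 and 518 CPM in Neuid KD. All 6 Neuid KD libraries were above the control median, and 4 controls were below every Neuid KD library. The log2 fold change of Neurod6 was 0.13 (95% interval 0.02 to 0.24, adjusted p = 0.176, edgeR; exact permutation p = 0.02597). Within the 7 libraries with at least 100 CPM of background it was 0.16, and within the other 5 it was 0.03 (the difference between them was not tested). Neurod6 passed only where a RUVs factor (adjusted p = 0.0464) or the background level (adjusted p = 0.0446, both edgeR) was added as a term.

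bHLH factors such as Neurod2 and Neurod6 bind the E-box, written CANNTG, and CAGATG is a form that the NeuroD family prefers. RefSeq promoter windows of GRCm38.p6 were found for 8 of the 9 markers (10 windows, none for Calb1), and the 250 bases before each start were searched on both strands. CANNTG occurred in 6 of these 10 windows, of 6 markers, and in 66.2% of all 32851 windows. CAGATG occurred in 3 of the 10 (Prox1, Wfs1 and Neurod2) and in 14.4% of all windows. Every CAGATG is also a CANNTG. The windows of Grik4 and Dsp held neither. The following stretches show the letters in the promoters of the 2 bHLH factors and of Prox1, 5′ to 3′ on the minus strand, with the E-box in capitals. All 5 lie outside annotated exons, and that of Prox1 lies within the antisense gene Prox1os. The match of Wfs1 and another match of Neurod2 touch annotated exons and are not shown. A further E-box of Prox1, CAAGTG starting 215 bases before the start, is also not shown.
Neurod2, chr11:98329746-98329775, E-box starting 118 bases before the start: agtagagagtgaCAGATGgcggcgggtccc
Neurod2, chr11:98329679-98329708, E-box starting 51 bases before the start: atcaccgtctctCATGTGatagctgctgcc
Neurod6, chr6:55681408-55681437, E-box starting 162 bases before the start: aagcccaccttgCAAATGaatggaatatta
Neurod6, chr6:55681378-55681407, E-box starting 132 bases before the start: acgactgcctaaCAGTTGcaccattggcag
Prox1, chr1:190170989-190171018, E-box starting 179 bases before the start: gcacaacgcccgCAGATGgctcgcggcggc
A match is only a run of letters, and binding was not measured in these libraries.

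Among themselves the 9 markers differed widely in level, here compared in CPM per kb of annotated exon. In control libraries Neurod6 was far above the rest, at 210 ± 16.4 CPM per kb (SD, n = 6), followed by Neurod2 at 22.9 ± 0.575 and Wfs1 at 11.8 ± 0.817 CPM per kb. Prox1 (7.38 ± 0.425), C1ql2 (6.43 ± 1.03), Mpped1 (6.37 ± 0.562) and Grik4 (6.26 ± 0.581 CPM per kb) came next, and the ranges of each neighbouring pair among these 4 overlapped. Calb1 (4.69 ± 0.245) and Dsp (2.43 ± 0.300 CPM per kb) were lowest. In Neuid KD libraries the order of the means was the same except in the middle, where Grik4 (7.37 ± 0.495 CPM per kb) stood above Mpped1 (5.92 ± 0.499) and C1ql2 (5.23 ± 0.433 CPM per kb).

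Ratios taken within a library do not depend on how libraries are scaled. They were chosen after the values were seen, so no test is given. Grik4 over Wfs1, by read counts, was between 0.76 and 0.877 in control libraries (median 0.846) and between 1.05 and 1.23 in Neuid KD libraries (median 1.18). Grik4 thus had fewer reads than Wfs1 in every control library and more in every Neuid KD library, replicate 1 included. Read counts also depend on exon length, 5.96 kb for Grik4 and 3.79 kb for Wfs1. Per kb the mean of Wfs1 stayed above that of Grik4, in control (11.8 against 6.26 CPM per kb) and after Neuid KD (10.0 against 7.37 CPM per kb). These are the 2 markers that passed, in opposite directions. How many other pairs of genes separate as well was not counted. Neurod6 over Neurod2 overlapped, at 5.72 to 6.7 in control (median 6.49) and 5.81 to 7.0 in Neuid KD libraries (median 6.24). C1ql2 over Prox1, both granule cell genes, ran from 0.161 to 0.26 in control (median 0.204) and from 0.134 to 0.204 in Neuid KD libraries (median 0.158).

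**Figure D3:**
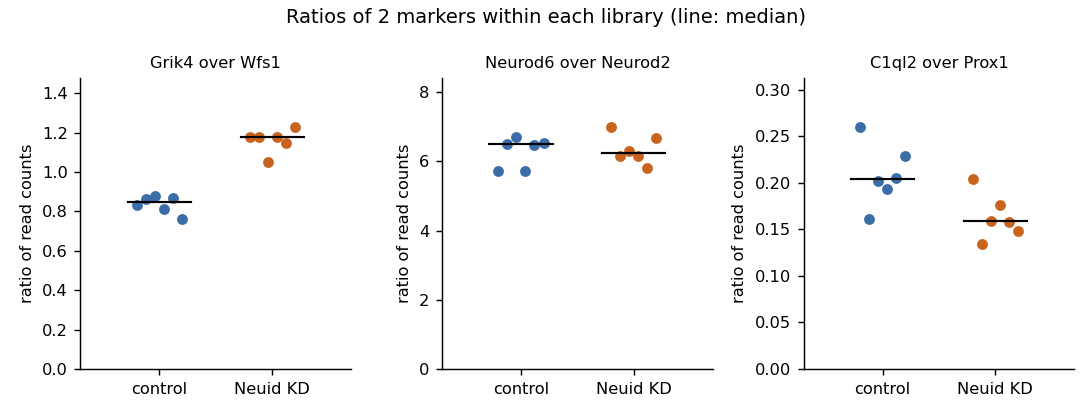
Ratio of the read counts of 2 subtype markers within each library (y axes, from 0), 1 point per library and a line at the median, for control (blue) and Neuid KD (orange). The ratios were chosen after the values were seen. Among them only Grik4 over Wfs1 has no overlap, with controls up to 0.877 and Neuid KD libraries from 1.05.

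For each marker, the tested gene with the most similar log2 CPM over the 12 libraries was looked up as a description. Pearson's r was 0.962 for Grik4 with Nln, 0.959 for Wfs1 with Chn2, for Neurod6 with Ywhae and for Dsp with Gm45205, 0.954 for Prox1 with Ankhd1, 0.953 for Neurod2 with Pdzd2, 0.929 for C1ql2 with Traip, 0.907 for Calb1 with Nol7 and 0.874 for Mpped1 with Pcdhga2. The 12 libraries share depth and background differences, and a best partner out of all tested genes can be high by number alone. No marker had another of the 9 as its most similar gene.

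Other markers of the same cell types were read from lists, and 163 genes in 17 lists were looked up in all. Of 14 tested other granule cell markers 2 were called, both higher, as 2.44% of tested genes were. Maml2, a coactivator of Notch signalling, rose from 12.0 ± 1.19 to 33.9 ± 2.80 CPM (log2 fold change 1.495, adjusted p = 2.18e-10, edgeR), and Dock10, a guanine nucleotide exchange factor, from 17.4 ± 1.97 to 27.9 ± 3.24 CPM (0.68, adjusted p = 2.27e-05, edgeR; SD, n = 6 each). Another 3 passed the adjusted p without reaching the fold threshold, all lower: Bcl11b (-0.29), a transcription factor needed for granule cell differentiation, Npnt (-0.31) and Il16 (-0.22). These 3 were named after their values were seen, and Bcl11b (adjusted p up to 0.0626) and Il16 (up to 0.117, both edgeR) no longer passed in 4 and 7 of the 12 fits without 1 library. The median of the list was -0.18, with genes that passed in both directions. It was -0.079 without control replicate 1, -0.084 without control replicate 4 and 0.058 within the 5 libraries under 100 CPM of background, so it gives no direction for the granule cell list.

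Of 11 other CA1 markers 0 were called and 0 passed the adjusted p in edgeR, 0 passed in DESeq2, and 2 had an unadjusted p under 0.05 in edgeR, 1 in each direction. Their median log2 fold change was -0.02, and Pex5l, which had the smallest p, was at 0.19 (adjusted p = 0.132, edgeR). Without Neuid KD replicate 1 Pex5l was at 0.21 and passed (adjusted p = 0.0172, edgeR). Of 11 other CA3 markers 0 were called (0 in DESeq2, and 6 with an unadjusted p under 0.05 in edgeR), and 2 passed the adjusted p: Trps1, a zinc finger repressor, rose by 0.25 on the log2 scale (adjusted p = 0.00931) and St18, named after its value was seen, fell by 0.31 on the log2 scale (adjusted p = 0.0158, both edgeR). Trps1, for which Neuid KD replicate 1 stood apart, was at 0.25 without that library too (adjusted p = 0.000245), and it did not pass without control replicate 2 or Neuid KD replicates 2 or 4 (adjusted p up to 0.0894, edgeR). The median of the CA3 list was 0.06. Of 9 CA2 markers 8 had a negative log2 fold change (median -0.16), and 2 passed the adjusted p: Amigo2, an adhesion protein, fell from 24.7 ± 1.60 to 19.6 ± 2.11 CPM (-0.33, adjusted p = 0.00458, edgeR; SD, n = 6 each) and Pcp4, a calmodulin regulator named after its value was seen, fell by 0.26 on the log2 scale (not past the threshold in 5 of 12 fits without 1 library, adjusted p up to 0.0759, edgeR). The CA2 median was -0.26 without Neuid KD replicate 6 and -0.071 within the 7 libraries with at least 100 CPM of background. Of 7 mossy cell markers 1 passed in edgeR, Ociad2 (-0.26, adjusted p = 0.00368), and 3 passed in DESeq2, all lower, 1 of them past the fold threshold. The mossy cell median was -0.26, and -0.10 within the 7 libraries with at least 100 CPM of background. Of 7 Cajal-Retzius cell markers none did (1 with an unadjusted p under 0.05 in edgeR, and 1 passing in DESeq2). Reln, the secreted protein of Cajal-Retzius cells, was at -0.23 (adjusted p = 0.0808, edgeR). In Neuid KD replicate 1 it stood apart from the rest of its group, and without that library Reln was at -0.21 and passed (adjusted p = 0.0146, edgeR). The median of the Cajal-Retzius list was -0.20, from -0.28 without Neuid KD replicate 5 to -0.065 without control replicate 1, and 0.0076 within the 5 libraries under 100 CPM of background.

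**Figure D4:**
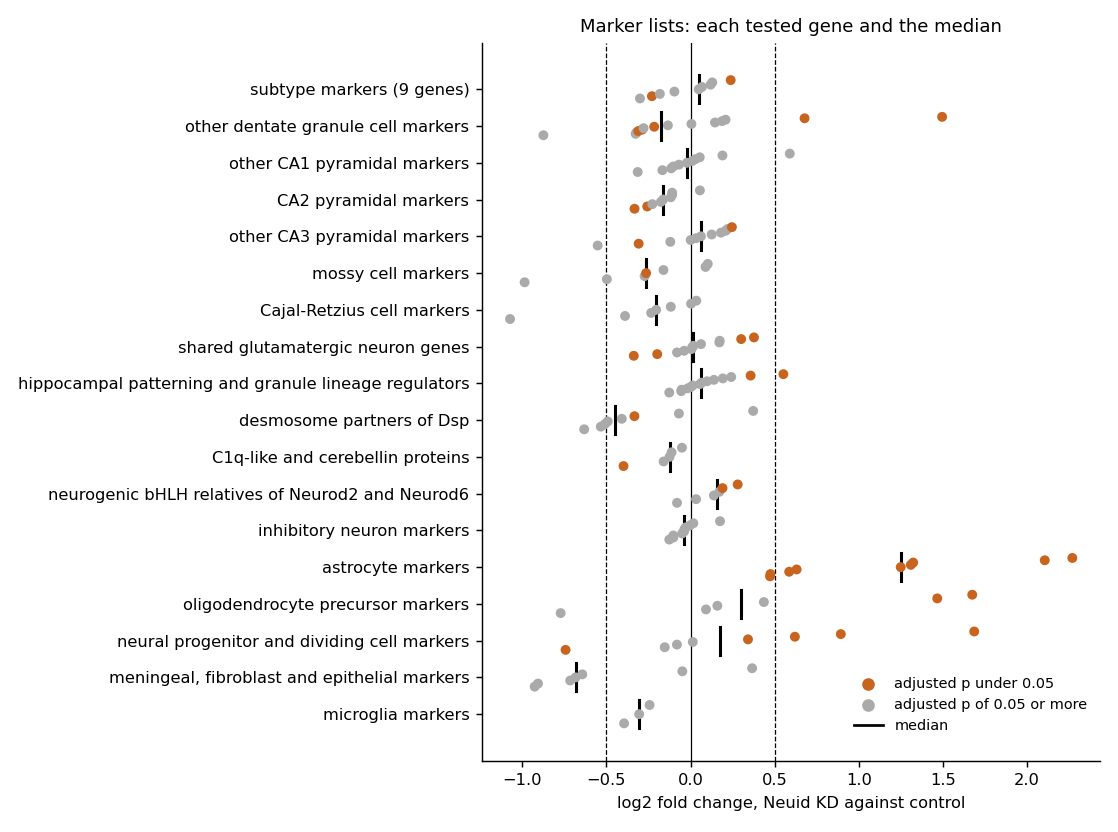
log2 fold change of each tested gene, Neuid KD against control (x axis), for the 9 subtype markers and for 17 lists, with a vertical bar at the median of each list and orange for an adjusted p under 0.05 (edgeR). The 9 subtype markers have a median of 0.05. The medians of the other granule cell, CA2, mossy cell and Cajal-Retzius lists lie between -0.26 and -0.16. Lower medians are those of the meningeal and epithelial (-0.68), desmosome (-0.45) and microglia (-0.31) lists. The astrocyte list lies wholly to the right, with a median of 1.25.

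Protein families of the markers were followed as well. Of 6 tested bHLH relatives of Neurod2 and Neurod6, 5 had a positive log2 fold change (median 0.15), and the E-proteins that pair with NeuroD factors included both that passed the adjusted p. Tcf3 rose from 36.1 ± 2.49 to 43.9 ± 2.63 CPM (0.28, adjusted p = 0.00265, edgeR; SD, n = 6 each) and Tcf12, named after its value was seen, was at 0.19 and did not pass in 10 of 12 fits without 1 library (adjusted p up to 0.282, edgeR). Without a filter on low counts the median of the relatives was -0.03, over a list then joined by genes with few reads, and it was 0.020 without Neuid KD replicate 2. Of 8 tested desmosome partners of Dsp 7 had a negative log2 fold change (median -0.45), but 5 of these (Pkp1, Dsc2, Dsg2, Ppl and Evpl) had means of at most 5.16 CPM in either group and standard errors of 0.40 to 0.74. Pkp2, at 6.42 CPM in control libraries, had a log2 fold change of 0.37, and Pkp4, at 241 CPM, one of -0.07. The median ran from -0.87 without Neuid KD replicate 1 to -0.14 with a RUVs factor, and was -0.22 without control replicate 4. These 7 partners were named after their values were seen. Of all 8, 1 passed, Jup, the plakoglobin that links desmoplakin to cadherins, which fell from 40.6 ± 2.29 to 32.1 ± 2.53 CPM without overlap (-0.33, adjusted p = 0.000765, edgeR; SD, n = 6 each). All 5 tested relatives of C1ql2 among the C1q-like and cerebellin proteins had a negative log2 fold change (median -0.13, and -0.27 without Neuid KD replicate 1). Among the 7 libraries with at least 100 CPM of background the median was 0.038. Of the 5, 1 passed, the synaptic organiser Cbln1 (-0.40, adjusted p = 0.0205), which did not pass without control replicates 2 or 5 or Neuid KD replicate 3 (adjusted p up to 0.0655, edgeR).

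Genes shared by glutamatergic neurons gave a median of 0.01 over 12 tested. Of these, 2 rose and 2 fell by the adjusted p, none past the fold threshold in edgeR or DESeq2 (6 had an unadjusted p under 0.05 in edgeR). Camk2a, the calmodulin kinase of mature excitatory synapses, rose from 699 ± 58.7 to 907 ± 44.1 CPM without overlap (0.38, adjusted p = 0.000216, edgeR; SD, n = 6 each). The others, named after their values were seen, were Nptx1 (0.30), Slc17a6 (-0.34) and Nrgn (-0.20), of which Nptx1 (adjusted p up to 0.137) and Nrgn (up to 0.103, both edgeR) did not pass in 7 and 6 of 12 fits without 1 library. Among 14 patterning and lineage regulators 1 was called, Emx2, a homeodomain factor of the developing hippocampus, which rose from 23.4 ± 2.08 to 34.3 ± 1.98 CPM (0.55, adjusted p = 6.81e-06, edgeR; SD, n = 6 each). Id2, named after its value was seen, passed the adjusted p without reaching the fold threshold (0.36, adjusted p = 0.00237, edgeR), also in each fit without 1 library. The median of this list was 0.06.

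Markers of other cell types were read from their own lists. In bulk RNA, more cells of a type, more RNA per cell and expression of these genes in neurons cannot be told apart. The paper proposes that Neuid keeps non-neuronal genes silent in neurons, and that they rise when it is reduced. All 9 tested astrocyte markers rose, 7 of them past the fold threshold, and their summed level was 1686 to 2125 CPM in control libraries and 3062 to 3724 CPM after Neuid KD. Slc1a2, named after its value was seen, was the largest part of this sum. Its mean was 1185 CPM in control libraries and 1834 CPM after Neuid KD. The largest rise on the log2 scale was that of Gja1 (log2 fold change 2.27), the gap junction protein connexin 43, and Aldh1l1 followed among those named by p (1.31, adjusted p = 9.46e-12, edgeR). Oligodendrocyte precursor markers summed to 96.3 to 115 CPM in control libraries and 247 to 292 CPM after Neuid KD, and Olig2 (1.67) and Olig1 (1.47) were the 2 of 6 called. Most of the rise in this sum was that of Olig1, from a mean of 78.2 to 216 CPM. The other 4, named after their values were seen, did not pass the adjusted p in edgeR. Their log2 fold changes were 0.44 (Pdgfra), 0.16 (Cspg4), 0.09 (Sox10) and -0.77 (Gpr17), with standard errors of 0.475 for Sox10 and 0.972 for Gpr17. Of 8 progenitor and dividing cell markers 3 were called higher, Sox2 (0.89), Nes (0.62) and, named after its value was seen, Hes5 (1.69), and Vim was called lower (-0.74). For 10 inhibitory neuron markers the median was -0.04 and none passed in edgeR (2 with an unadjusted p under 0.05, and 1 passing in DESeq2), Slc32a1 having the smallest p (0.17 on the log2 scale). Meningeal and epithelial markers summed to 30.0 to 62.0 CPM in control libraries and 29.2 to 50.9 CPM after Neuid KD, with Epcam, Krt8 and Krt18 under 1 CPM in every library, and 0 of 7 passed in edgeR or DESeq2 (0 with an unadjusted p under 0.05), Col3a1 having the smallest p. Their median was -0.68, from -1.13 without Neuid KD replicate 1 to 0.13 within the 5 libraries under 100 CPM of background. Microglia markers summed to 6.57 to 11.1 CPM in control libraries and 5.74 to 10.4 CPM after Neuid KD, P2ry12, Tmem119 and C1qa were under 1 CPM in every library, and 0 of 3 passed in edgeR or DESeq2 (0 with an unadjusted p under 0.05), Aif1 having the smallest p. The median of these 3 tested genes was -0.31, from -0.61 without Neuid KD replicate 1 to -0.12 within the 5 libraries under 100 CPM of background. The labelled cell type was thus borne out for neurons (the shared glutamatergic genes summed to 2923 to 3482 CPM in control). The cultures also held RNA of astrocyte marker genes. Whether the rise of the astrocyte marker genes, Olig1 and Olig2 bears on the values of the 9 subtype markers was not tested.

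**Figure D5:**
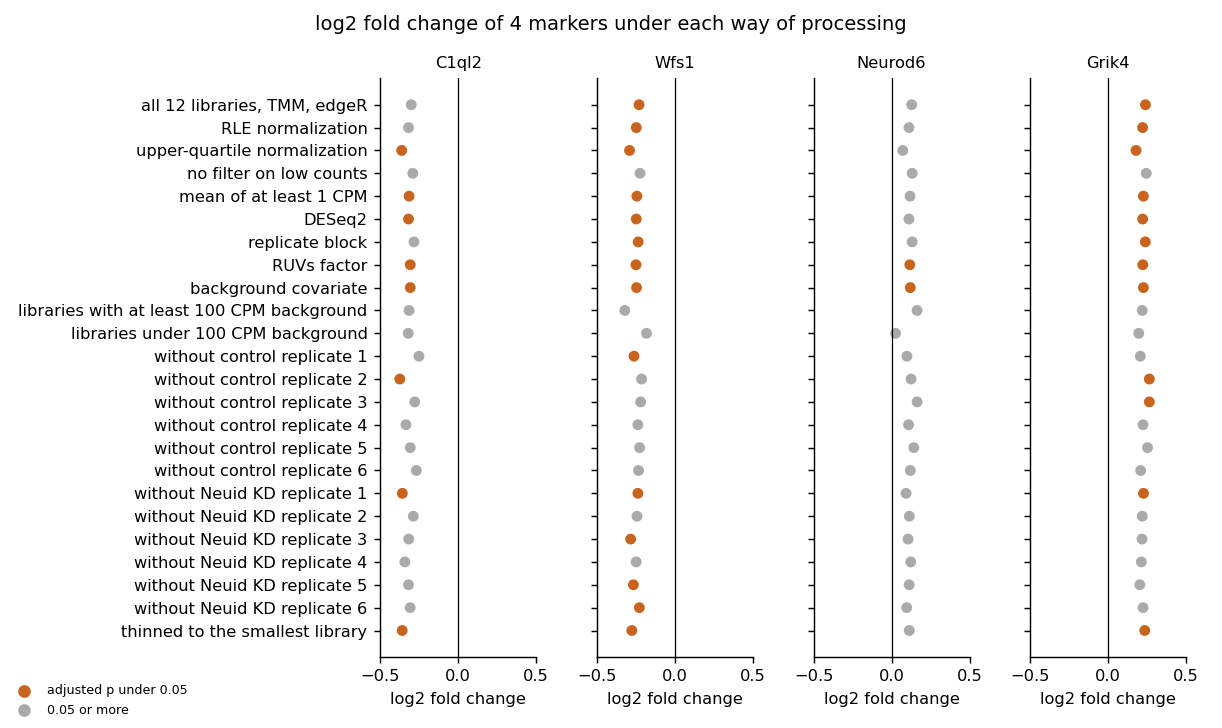
log2 fold change (x axes) of the 4 subtype markers whose result changed side of the threshold, under each way of processing (y axis), orange where the adjusted p was under 0.05. C1ql2 and Wfs1 stay below 0 and Neurod6 and Grik4 above 0 under every setting shown.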

How the data were processed

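RNA of 12 libraries (6 control, 6 Neuid KD) was sequenced from a stranded total RNA kit. The authors aligned the reads to mm10 (GRCm38) with STAR and counted them per gene with featureCounts, and the deposited values are raw counts, without normalization. The annotation release and the strand setting of the counting are not given in the sources used here. A symbol and position were found for 55230 of the 55471 genes in GENCODE M21. Counts were scaled with TMM and tested with edgeR 4.0.16 (filterByExpr, quasi-likelihood fit with group as the only term), with Benjamini-Hochberg adjustment over the 19578 genes kept, and a gene was called where its adjusted p was under 0.05 and its log2 fold change beyond ±0.5. The study used DESeq2 with RUVseq, which are alternatives here (DESeq2 1.42.0, and 1 RUVs factor). Single genes were also compared by a two-sided exact permutation test over all arrangements of the libraries. Depth was 11152556 to 30914714 counted reads per library, and the spread of the markers between libraries was above counting error for most of them. The genes named in the text are the 9 markers, Neuid, in each list up to 2 called genes per direction with the smallest adjusted p (where none was called, the gene with the smallest p), and the most correlated gene of each marker. Genes named beyond this rule, mostly to account for small counts, are marked as named after their values were seen. The markers and lists were chosen with earlier results of these data known. Sequences are from RefSeq (GRCm38.p6). Scripts were tested on simulated data. No 2 libraries held identical counts. R 4.3.3 and Python 3.11.15 were used.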

Additional observations from a re-analysis of the deposited data

Results flagged for a closer look

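In Neuid KD replicate 1, the 4 list genes described next lay far from the other 5 libraries of the group, the gap to the nearest exceeding the limit of Dixon's test. Reln was at 103.7 CPM, where the others ran from 136.6 to 149.1 CPM, and Trps1 was at 101.0 CPM, where they ran from 120.3 to 127.3 CPM. Zbtb20, a CA1 list gene, was at 995.7 CPM against 1815 to 1927 CPM, and Grin2b, a shared glutamatergic gene, at 679.5 CPM against 1233 to 1275 CPM (these 2 were singled out after their values were seen). Reln and Trps1 were the 2 values found over 64 groups of 6 libraries, for the 32 genes named by rule, where chance alone gives about 1 in 20 groups. Zbtb20 and Grin2b do not count toward that share. No value of the 9 subtype markers stood apart in this way. Over all 153 tested markers and list genes replicate 1 was apart low for 18 and apart high for 2. It had the fewest reads, 11152556, and 604 CPM of background. The cause was not tested.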

How the results depend on the processing

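Over 23 alternatives, the direction of every subtype marker held except that of Calb1, which was -0.013 with upper-quartile scaling, -0.015 within the 7 libraries of at least 100 CPM background and -0.0012 to 0.071 with 1 library left out. C1ql2 passed the adjusted p (edgeR unless named) with upper-quartile scaling (-0.36), a mean of at least 1 CPM (-0.31), DESeq2 (-0.32), the RUVs factor (-0.31), the background covariate (-0.31) and thinning to the smallest library (-0.36), and in 2 of 12 fits without 1 library (-0.37 to -0.25). Wfs1 did not pass without a filter (-0.22, adjusted p = 0.403), within the libraries of at least 100 CPM (-0.32) or under it (-0.18), or in 7 of 12 fits without 1 library (-0.28 to -0.21). Grik4 did not pass in the same 3 settings (0.24, 0.22 and 0.20) or in 9 of 12 fits without 1 library (0.20 to 0.26). Neurod6 passed with the RUVs factor (0.12, adjusted p = 0.0464) and the background covariate (0.12, adjusted p = 0.0446). Hence the number of subtype markers that rose was 2 with the RUVs factor and the background covariate and 0 without a filter or within either set of libraries (0 to 1 without 1 library). The number that fell was 2 with upper-quartile scaling, a mean of at least 1 CPM, DESeq2, the RUVs factor, the background covariate and thinning, and 0 without a filter or within either set (0 to 2 without 1 library). With no fold threshold 2 subtype markers, 1235 genes higher and 473 lower passed. Genes called lower, 155 in the reported fit, numbered 260 in DESeq2, 282 with the RUVs factor and 300 with the background covariate, and 123 to 269 without 1 library (269 without Neuid KD replicate 1). Genes called higher, 477, numbered 414 to 475 without 1 library. The filter tests fewer genes, and without it 48419 were adjusted for, with a median log2 fold change over all of them of -0.145, against -0.03 in the reported fit. The cause of the other changes was not tested.

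Same-numbered libraries share only a number: 2 of 6 pairs deviated together with r above 0.1 (from -0.637 to 0.774), and 2 of 6 controls matched best the Neuid KD library of their own number. With the replicate block the log2 fold change was -0.24 for Wfs1, 0.24 for Grik4 and -0.28 for C1ql2, 474 genes were called higher and 167 lower, and no subtype marker changed its call. C1ql2 had the fewest reads, 134 to 407 per library, and its spread between control libraries was above counting error.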
